A study of Mus musculus with 15 samples.

Results

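Frame-preserving cassette exons in expressed genes were described in CD8+ T cells activated with antigen, with or without costimulation. A cassette exon is an internal exon that some transcripts of a gene include and others skip. The exons were chosen by measured values, from the deposited table of percent spliced in (PSI, the fraction of transcripts that include a segment). An exon had to be a core exon of at least 28 bases with a length that is a multiple of 3, a mean of the 2 group PSI values between 0.1 and 0.9, and a host gene at a mean of at least 10 CPM (a gene's counts scaled to a common library total). Of 138940 events in the table, 108413 were core exons, 81181 core exons lay in genes at that level, and 1037 exons in 785 genes met the whole rule. Both groups were CD8+ T cells of OT-1 Tg C57BL/6J mice, transferred into C57BL6/J recipients that received antigen-only (Ag, 5 libraries) or antigen with the agonist antibodies anti-OX40 and anti-41BB (Ag+Costim, 5 libraries), collected from spleen and lymph nodes on day 4 per the labels and sorted. The transgenic receptor sees an ovalbumin peptide, so the cells share their specificity and stand for no polyclonal response. PSI was given as 1 value per group, so a PSI difference has no replicate check.

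A cassette exon whose length is a multiple of 3 can be added to or left out of a coding message without moving the reading frame, so that both forms can be translated and differ by a stretch of amino acids. An exon of any other length shifts the frame when skipped and often brings a premature stop codon, which exposes the message to nonsense-mediated decay. RNA binding proteins such as the SR proteins, the hnRNP proteins and the CELF, MBNL and TIA families decide exon use by binding in or near the exon. In T cells the best known case is Ptprc, which encodes the phosphatase CD45 and whose variable extracellular exons are skipped as cells become activated.

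The exons on which the results turn are shown here, with the exon in capitals and 12 bases of the neighbouring exons of the same transcript in lower case, 5′ to 3′ on the transcribed strand. All are fully coding in an annotated transcript, and both sequence and positions come from GENCODE M21 on GRCm38 (mm10). The first 5 had higher inclusion in every Ag+Costim library than in any Ag library.
Fmnl3, 153 bases, chr15:99329280-99329432, minus strand: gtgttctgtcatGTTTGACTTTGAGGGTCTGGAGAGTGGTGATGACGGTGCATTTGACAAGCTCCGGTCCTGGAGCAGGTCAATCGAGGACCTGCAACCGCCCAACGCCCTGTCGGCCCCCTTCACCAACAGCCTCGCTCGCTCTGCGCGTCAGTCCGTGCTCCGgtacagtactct
Spg20, 171 bases, chr3:55124755-55124925, plus strand: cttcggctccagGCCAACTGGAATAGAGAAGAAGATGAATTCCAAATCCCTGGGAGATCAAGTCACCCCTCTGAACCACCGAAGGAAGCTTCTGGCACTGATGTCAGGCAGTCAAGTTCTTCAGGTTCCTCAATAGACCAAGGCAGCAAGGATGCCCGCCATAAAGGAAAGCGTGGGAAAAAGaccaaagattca
Brwd1, 168 bases, chr16:96004963-96005130, minus strand: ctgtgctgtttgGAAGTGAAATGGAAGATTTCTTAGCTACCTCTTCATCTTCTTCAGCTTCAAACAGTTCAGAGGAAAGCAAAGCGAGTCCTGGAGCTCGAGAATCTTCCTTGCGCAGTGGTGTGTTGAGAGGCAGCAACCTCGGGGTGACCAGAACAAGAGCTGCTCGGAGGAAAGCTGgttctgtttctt
Dock11, 39 bases, chrX:36009943-36009981, plus strand: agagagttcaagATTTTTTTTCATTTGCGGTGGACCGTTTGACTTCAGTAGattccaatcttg
Zcchc9, 69 bases, chr13:91798823-91798891, minus strand: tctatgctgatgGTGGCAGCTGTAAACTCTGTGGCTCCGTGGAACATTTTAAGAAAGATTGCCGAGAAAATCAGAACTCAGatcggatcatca

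The next 6 had lower inclusion in every Ag+Costim library than in any Ag library.
Pkp4, 129 bases, chr2:59350494-59350622, plus strand: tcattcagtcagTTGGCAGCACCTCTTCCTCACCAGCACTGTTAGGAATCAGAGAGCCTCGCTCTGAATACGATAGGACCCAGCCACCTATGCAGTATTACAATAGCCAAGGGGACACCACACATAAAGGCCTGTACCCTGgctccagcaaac
Ttc13, 66 bases, chr8:124699656-124699721, minus strand: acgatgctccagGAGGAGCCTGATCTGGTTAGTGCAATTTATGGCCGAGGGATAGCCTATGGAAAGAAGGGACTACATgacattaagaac
Cep57, 78 bases, chr9:13812633-13812710, minus strand: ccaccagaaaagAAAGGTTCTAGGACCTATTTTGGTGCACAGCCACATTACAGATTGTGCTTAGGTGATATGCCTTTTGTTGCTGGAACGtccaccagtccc
Pecam1, 57 bases, chr11:106671742-106671798, minus strand: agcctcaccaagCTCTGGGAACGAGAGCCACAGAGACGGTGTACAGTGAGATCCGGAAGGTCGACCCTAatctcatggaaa
Ppp2r5c, 117 bases, chr12:110574745-110574861, plus strand: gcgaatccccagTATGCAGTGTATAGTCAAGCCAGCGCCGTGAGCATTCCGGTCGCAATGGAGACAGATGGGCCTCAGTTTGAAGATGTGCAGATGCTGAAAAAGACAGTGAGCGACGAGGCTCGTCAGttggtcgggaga
Aak1, 96 bases, chr6:86970991-86971086, plus strand: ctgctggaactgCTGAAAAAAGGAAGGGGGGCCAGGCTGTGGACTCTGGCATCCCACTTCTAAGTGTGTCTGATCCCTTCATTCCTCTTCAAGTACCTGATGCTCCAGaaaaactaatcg

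The last 4 are an exon whose 2 readouts disagreed (Iqce), an exon that split the Ag libraries (Ep400), and exons of the T cell gene with the highest host level (Ptprc) and of a lymphocyte transcription factor that the study text names (Ikzf1).
Iqce, 84 bases, chr5:140669022-140669105, minus strand: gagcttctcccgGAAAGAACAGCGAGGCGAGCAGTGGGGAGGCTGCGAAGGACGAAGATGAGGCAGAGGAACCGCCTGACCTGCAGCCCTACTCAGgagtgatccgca
Ep400, 108 bases, chr5:110740182-110740289, minus strand: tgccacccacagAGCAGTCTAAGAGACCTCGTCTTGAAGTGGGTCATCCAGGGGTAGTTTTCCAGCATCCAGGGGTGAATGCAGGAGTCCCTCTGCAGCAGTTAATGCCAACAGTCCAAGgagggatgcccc
Ptprc, 147 bases, chr1:138120020-138120166, minus strand: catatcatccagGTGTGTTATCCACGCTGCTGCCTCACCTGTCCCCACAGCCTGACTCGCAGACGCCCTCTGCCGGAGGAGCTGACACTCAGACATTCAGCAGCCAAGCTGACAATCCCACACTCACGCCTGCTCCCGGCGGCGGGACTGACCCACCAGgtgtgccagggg
Ikzf1, 261 bases, chr11:11748311-11748571, plus strand: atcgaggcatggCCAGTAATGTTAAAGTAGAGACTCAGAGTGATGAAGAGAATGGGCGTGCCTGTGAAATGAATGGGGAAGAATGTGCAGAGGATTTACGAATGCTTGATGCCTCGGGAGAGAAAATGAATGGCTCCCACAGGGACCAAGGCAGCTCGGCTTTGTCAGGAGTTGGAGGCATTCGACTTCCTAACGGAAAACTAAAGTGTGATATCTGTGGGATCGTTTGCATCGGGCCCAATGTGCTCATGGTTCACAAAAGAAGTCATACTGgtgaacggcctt

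The libraries held 59598556 (Ag replicate 3) to 639070261 (Ag+Costim replicate 3) estimated gene counts. Genes with a count numbered 48058, 51778 and 40441 in Ag replicates 1, 3 and 4, and 20714 to 30340 in the other libraries. Log2 CPM values, after TMM scaling, correlated at 0.928 to 0.994 among the Ag libraries and at 0.994 to 0.997 among the Ag+Costim libraries. The summed level of 30 cell cycle genes was 2697 and 2563 CPM in Ag replicates 1 and 4, against 10794 to 13005 CPM in the other 3 Ag libraries and 13159 to 16002 CPM in Ag+Costim. The same 2 libraries had the highest summed CD8 T cell markers (6 genes, 7386 and 7385 CPM, against 3668 to 5072 CPM elsewhere) and the highest summed B cell markers (8 genes, 1375 and 1486 CPM, against 458 to 1101 CPM). Red cell markers (6 genes) summed to 1314 CPM in Ag replicate 3 and to 3.51 to 175 CPM in the others. Summed myeloid markers (8 genes) spanned 67.3 to 178 CPM in Ag and 74.0 to 165 CPM in Ag+Costim, and CD4 T cell markers (4 genes) 3.39 to 32.8 CPM and 2.92 to 7.48 CPM. In bulk RNA, fewer cells of a type and less RNA per cell cannot be told apart. The part of these differences in the results was not tested, so counts are also given without Ag replicates 1 and 4.

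**Figure D1:**
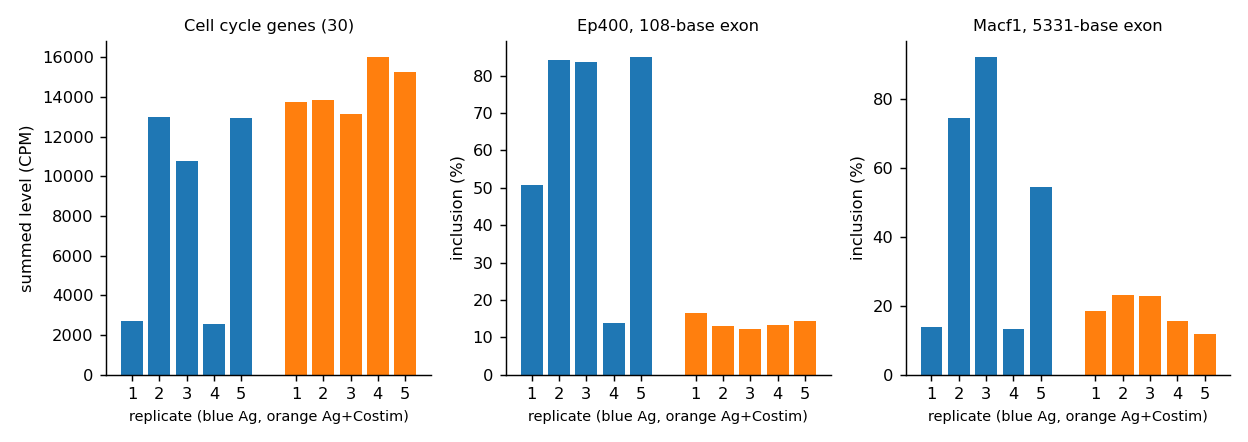
Bars show, for each of the 10 libraries (blue Ag, orange Ag+Costim, replicate number on the x axis), the summed level of 30 cell cycle genes in CPM and the inclusion in percent of the 108-base exon of Ep400 and the 5331-base exon of Macf1. Ag replicates 1 and 4 sit below the other libraries in cell cycle level, and for both exons they are the lowest of the Ag libraries.

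The 1037 exons had a median length of 102 bases (quartiles 69 and 150, range 30 to 5331), and 792 of them (76.4%) had up to 150 bases. Most were included more often than skipped. The mean PSI was 0.7 or more in 524 exons (50.5%), 0.3 to 0.7 in 329 (31.7%) and under 0.3 in 184 (17.7%). Taken per exon, the host gene level had a median of 39.2 CPM (quartiles 20.9 and 79.3), up to 1553 CPM for Hnrnpa2b1, an hnRNP protein. In the annotation 1035 of the exons equalled a listed exon, 880 (84.9%) were fully coding, 68 (6.56%) partly coding and 78 (7.52%) outside the coding sequence, and 11 lay in genes or transcripts without a coding sequence. Of the 811 exons with annotated transcripts on both sides, 751 (92.6%) had protein-coding transcripts both with and without the exon. Of these 811, 13 (1.6%) had coding transcripts with the exon and, without it, decay-type transcripts and no coding one.

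Exons of the same PSI range and host level whose length is not a multiple of 3 numbered 971. They were coding in 653 cases (67.3%) and outside the coding sequence in 190 (19.6%), and 525 of 720 with both sides annotated (72.9%) had coding transcripts on both sides. Coding inclusion beside skipping transcripts of decay type and no coding one was annotated in 89 of these 720 (12.4%). Since length defines both sets, these shares describe them and test nothing.

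Exon sequence was described by base composition and short motifs. Median GC content was 50% in the frame-preserving cassette exons, 48.3% in the frame-shifting ones and 50% in 77945 near-constitutive core exons. Letters bound by known regulators were looked for inside the exons, on the transcribed strand only and with overlaps between motifs allowed. TGTGTG, of the kind that Tardbp binds, was in 43 of 1037 exons (4.15%), 5.36% of frame-shifting exons and 5.25% of near-constitutive ones. CACACA, of the kind that Hnrnpl binds, was in 57 (5.50%), against 4.53% and 4.32%. TGCATG, bound by the RBFOX family, was in 28 (2.70%, against 3.5% and 3.46%). TTCTTT, in the style of Ptbp1 sites, was in 34 (3.28%, against 3.81% and 3.83%), TTTTTT in 11 (1.06%, against 2.57% and 1.84%), and ACTAAC, bound by the STAR family, in 16 (1.54%, against 1.13% and 1.02%). Among the 15 exons printed, TTTTTT was in that of Dock11, CACACA in that of Pkp4, and none of the 6 motifs in the others.

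At the limits of the rule, a 117-base exon of Kdm2a (mean PSI 0.1004) and a 60-base exon of Dennd1b (0.1004) were just inside 0.1, and exons of Fam35a (0.0998) and Braf (0.0999) just outside. An exon of Emsy (0.89972) was just inside 0.9, and exons of Pacsin2 (0.90007) and Med15 (0.900105) just outside. By host level, exons of St7 (10.01 CPM) and Odf2l (10.02 CPM) were the last inside, and 2 exons of 9430038I01Rik (9.98 CPM) the first outside.

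The exons were not spread evenly over genes. A single one lay in 628 genes, and 157 genes held the other 409. Ttn, the giant sarcomere protein, held 17, Ermard 14 (spread over 3 neighbouring copies of the gene with 3 gene IDs, which reads may not tell apart), Ep400 9, Cdh23 8, Emsy and Syne2 7 each, and Cux1 and Macf1 6 each. Cdh23 passed the limit, at a mean of 10.5 CPM, through Ag libraries only. It was at 26.3 and 25.8 CPM in Ag replicates 1 and 4 and at 5.44 to 13.2 CPM in the other Ag libraries. In Ag+Costim it was at 3.33 to 6.88 CPM. Exons of 1 gene often shared 1 PSI value and so are not independent. In Srsf7, 3 exons shared PSI values of 0.850 (Ag) and 0.865 (Ag+Costim).

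PSI differed little between the groups in most of the exons, and in both directions. The difference between groups was over 0.05 in 411 (39.6%), 208 of them higher and 203 lower in Ag+Costim. It was over 0.1 in 172 exons (16.6%, 92 higher and 80 lower), against a background of 0.503% of all core exons in genes at 10 CPM or more, most of which are near-constitutive and have little room to move. It was over 0.2 in 37. Among the frame-shifting cassette exons 168 of 971 (17.3%) passed 0.1. The median difference was 0.00058 in the frame-preserving and −0.0012 in the frame-shifting exons. The mean PSI that chose the exons comes from the same 2 values, so none of these counts is a test.

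PSI differences were smaller at higher host levels. In genes under 30 CPM, 108 of 397 exons (27.2%) differed by more than 0.1. In genes from 30 to 100 CPM it was 57 of 448 (12.7%), and in genes at 100 CPM or more 7 of 192 (3.65%), with none over 0.2. Exons without an annotated skipping transcript passed 0.1 in 62 of 226 cases (27.4%), against 110 of 811 (13.6%) of those with one. Both the 108 and the 62 include 16 exons of Ttn, which passed 10 CPM through 1 library. The 62 also include 3 linked exons of Zfp64, and exons of 1 gene are not independent.

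**Figure D2:**
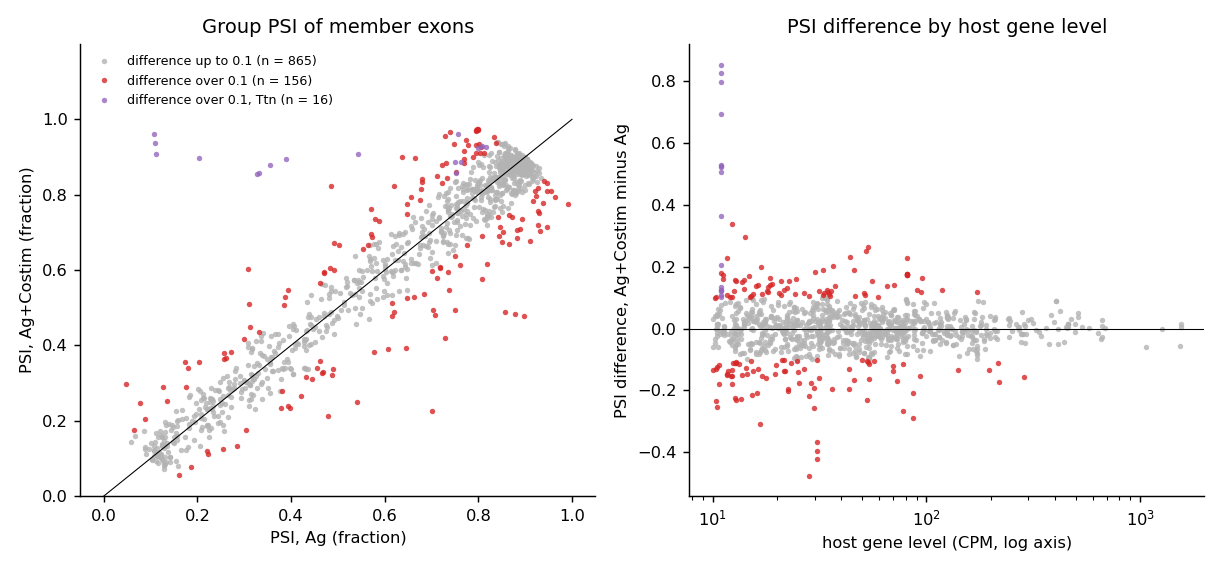
The left panel plots PSI in Ag+Costim against PSI in Ag for all 1037 exons (grey up to 0.1 apart, red over 0.1, purple over 0.1 in Ttn, black line equal values), and the right panel the PSI difference against host gene level in CPM on a log axis. The differences narrow as the host level rises, and the largest ones stand at the lowest levels.

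Several genes held more than 1 exon of the set. All 17 exons of Ttn had higher PSI in Ag+Costim, 16 by over 0.1, and 3 of them were at 0.107, 0.109 and 0.112 in Ag against 0.961, 0.936 and 0.909 in Ag+Costim. Ttn was at 80.4 CPM in Ag replicate 3, the library with the red cell RNA, at 0.640 to 12.1 CPM in the other Ag libraries and at 0.871 to 2.99 CPM in Ag+Costim, so it passed 10 CPM through 1 library. Without that library in the mean level, 1015 exons met the rule and 154 of them differed by over 0.1. Without all of Ttn it was 156 of 1020 (15.3%).

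Ep400, the ATPase of a chromatin remodelling complex, had 9 exons that were all higher in Ag+Costim. Of these, 8 have no annotated skipping transcript, and 6 of the 8, all between exons 30 and 37 of 51, were at 0.794 to 0.799 in Ag and at 0.969 to 0.976 in Ag+Costim. In Zfp64, a zinc finger protein, 3 exons without an annotated skipping transcript were lower together, with 0.856, 0.878 and 0.897 in Ag against 0.490, 0.484 and 0.477 in Ag+Costim. The 6 exons of Cux1, a homeodomain transcription factor, were all lower, at 0.397 to 0.436 in Ag and at 0.235 to 0.340 in Ag+Costim. In Macf1, a giant linker of microtubules and actin, 5 neighbouring exons lay within 0.813 to 0.863 in Ag and 0.735 to 0.764 in Ag+Costim, the 5331-base exon among them.

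Some exons of hosts above the median level also differed by more than 0.1, and those given next were chosen after their values were seen. The 57-base exon of Eif4g1, a scaffold of translation initiation, lies outside the coding sequence and had a PSI of 0.964 under antigen alone and 0.793 with costimulation. Tpm1, a tropomyosin of the actin filament, has mutually exclusive second exons of 126 bases, and 1 of them had 0.928 under antigen alone and 0.757 with costimulation. Plec, which ties intermediate filaments to membranes, has a 3381-base exon with 0.917 under antigen alone and 0.782 with costimulation. The 1236-base exon of Wnk1, a kinase of ion transport, had 0.479 under antigen alone and 0.212 with costimulation. On the higher side were a 33-base exon of Arap1, a GTPase regulator, with 0.388 under antigen alone and 0.530 with costimulation, an 81-base exon of Gapvd1 of the endocytic route with 0.769 under antigen alone and 0.894 with costimulation, and a 39-base exon of Kif21b, a kinesin, with 0.384 under antigen alone and 0.508 with costimulation.

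Replicates came in through a second readout of the same libraries. For each exon and library, the estimated counts of annotated transcripts that contain the exon were set against those of transcripts that span but skip it. Inclusion is the first as a percent of both, with no scaling of the counts by transcript length. Of the 1037 exons, 811 had transcripts on both sides and 778 passed the count limits, while 226 had no annotated skipping transcript and 33 too few counts. The median inclusion of the 778 spanned 68.4 to 72.6% over the Ag libraries and 67.5 to 69.6% over the Ag+Costim libraries. In Ag replicates 2, 3 and 5, 4.76, 5.78 and 6.17% of the 778 were at exactly 0 or 100%. In the other libraries, Ag replicates 1 and 4 among them, it was 0.643 to 1.67%. The median difference was −0.182 percentage points in the frame-preserving exons, −0.0386 in 698 frame-shifting exons and −0.0186 in all 7428 core exons tested. Between replicates the median standard deviation was 7.42 points in Ag and 4.43 points in Ag+Costim, and Ag was the more variable group in 555 of the 778. The same held in 527 of the 698 frame-shifting exons and in 5176 of all 7428, so it is not particular to this set.

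No frame-preserving cassette exon passed the edgeR quasi-likelihood test with Benjamini-Hochberg adjustment at 0.05, against a background of 0.0404% of all exons tested (3 exons, all near-constitutive and all lower in Ag+Costim, in Trappc6b, Ctdspl2 and Mpv17). The lowest adjusted p among the 778 was 0.271. At an unadjusted p under 0.05 there were 30 (3.86%, 11 higher and 19 lower), against 5.96% of all exons tested. DESeq2 called 27 of the 778 (3.47%), 7 higher and 20 lower, against 7.73% of all exons tested, and limma called none. Without Ag replicates 1 and 4, edgeR called 2, in Ep400 and Tcof1, against 0.458% of all exons (34 calls).

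Inclusion did not overlap between the groups in 24 of 777 exons with at least 10 counts in every library (3.09%, 9 higher and 15 lower in Ag+Costim), against a background of 2.29% of 7257 exons. Without Ag replicates 1 and 4 it was 67 (8.62%, against 7.66% of all exons). In 20 of the 24 the PSI difference had the same sign.

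The 2 readouts shared a level more than a difference. Over the 778 exons the Pearson correlation was 0.594 between mean inclusion and mean PSI, and 476 (61.2%) lay within 20 percentage points of each other. For the differences it was 0.237, and 503 exons (64.7%) had the same sign. Among the 101 exons with a PSI difference over 0.1 the sign was the same in 71 (70.3%). Both readouts come from the same reads, so these values describe how 2 ways of counting compare.

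**Figure D3:**
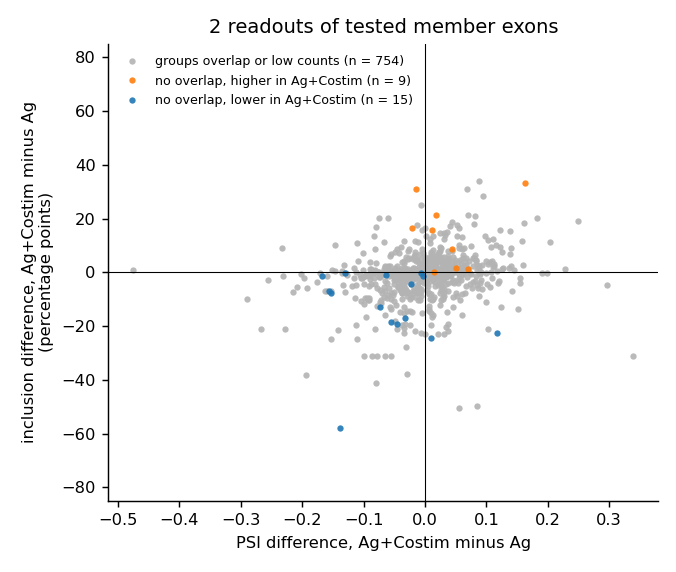
Each point is 1 of the 778 tested exons, with the PSI difference on the x axis and the difference of mean inclusion in percentage points on the y axis, both Ag+Costim minus Ag (orange and blue mark exons whose libraries do not overlap). Points lie in all 4 quadrants, and the 24 marked exons are spread over PSI differences of either sign.

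Higher in every Ag+Costim library, with a PSI difference of the same sign, were 7 exons. The 153-base exon of Fmnl3, a formin that builds actin filaments, differed most. Its inclusion was 18.8, 2.18, 14.2, 24.1 and 0% in Ag replicates 1 to 5 and 47.2, 39.4, 44.9, 53.3 and 40.1% in Ag+Costim replicates 1 to 5. Every Ag+Costim library was above the highest Ag library, although replicates 2 and 5 of Ag were close to 0 and replicate 4 was at 24.1% (log2 odds ratio 3.46 ± 1.71 SE, adjusted p = 0.863). The PSI was 0.126 under antigen alone and 0.289 with costimulation. Its host gene was at 18.5 CPM.

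Spg20 encodes spartin, of lipid droplets and cytokinesis. Inclusion of its 171-base exon was 40.1, 39.2, 41.0, 49.2 and 48.0% in Ag and 69.5, 60.5, 74.5, 55.5 and 64.2% in Ag+Costim, so no library of one group reached the other (log2 odds ratio 1.28 ± 0.40 SE, adjusted p = 0.514). PSI was 0.702 under antigen alone and 0.720 with costimulation.

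Brwd1, a bromodomain protein of chromatin, had 2 neighbouring exons that were alike in inclusion but not in the sign of their PSI difference. The 168-base exon was included at 58.3, 57.4, 61.5, 67.6 and 64.1% in Ag and at 75.3, 77.3, 79.99, 78.0 and 77.9% in Ag+Costim, without overlap (log2 odds ratio 1.11 ± 0.36 SE, adjusted p = 0.520). The 849-base exon next to it was at 60.6 ± 3.94% and 77.1 ± 1.81% (SD, n = 5), while its PSI was 0.476 under antigen alone and 0.454 with costimulation. The exons share their transcripts and so are 1 event in this readout.

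Puf60 is itself a splicing factor that works with U2AF at the 3′ splice site. Its 51-base exon was included at 6.86, 12.2, 15.9, 7.37 and 11.7% in Ag and at 21.1, 20.6, 19.3, 16.8 and 19.5% in Ag+Costim, and the highest Ag library, replicate 3, came within 1 point of the lowest Ag+Costim library (log2 odds ratio 1.06 ± 0.32 SE, adjusted p = 0.437). PSI was 0.238 under antigen alone and 0.283 with costimulation in a host at 384 CPM, the highest level among these exons. At least 19249 estimated counts in each library stood behind these values.

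The 39-base exon of Dock11, a guanine nucleotide exchange factor for Cdc42, was included at 4.05, 5.30, 5.59, 5.35 and 4.03% in Ag and at 6.17, 6.09, 6.53, 6.18 and 6.65% in Ag+Costim, a difference of 1.46 points (adjusted p = 0.915 with edgeR). Zcchc9, a zinc knuckle protein, was at 96.7 ± 1.0002% in Ag against 98.1 ± 0.358% in Ag+Costim (SD, n = 5) for its 69-base exon. Kif23 is the kinesin of the central spindle, and its 312-base exon separates the long CHO1 form from MKLP1. That exon was at 99.5 ± 0.0453% and 99.6 ± 0.0345% in this readout, and its PSI was 0.366 under antigen alone and 0.380 with costimulation. The adjusted p was 0.849 for Zcchc9 and 0.921 for Kif23.

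Lower in every Ag+Costim library, with a PSI difference of the same sign, were 13 exons, of which the 10 with the largest PSI differences are described here. The 129-base exon of Pkp4, an armadillo protein of cell junctions, differed most. Inclusion was 73.2, 86.6, 92.2, 83.0 and 70.2% in Ag and 7.26, 14.6, 69.4, 9.24 and 14.8% in Ag+Costim. Of the Ag+Costim libraries 4 were at or under 14.8%, and replicate 3 lay just under the lowest Ag library (log2 odds ratio −4.61 ± 1.01 SE, adjusted p = 0.307). The host was at 15.4 CPM, and PSI was 0.468 under antigen alone and 0.330 with costimulation.

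Ttc13 encodes a tetratricopeptide repeat protein. Its 66-base exon was included at 39.0, 29.3, 28.2, 29.3 and 25.4% in Ag and at 12.6, 10.3, 13.9, 15.5 and 14.027% in Ag+Costim (log2 odds ratio −1.51 ± 0.32 SE, adjusted p = 0.307), and PSI was 0.220 under antigen alone and 0.188 with costimulation. Cep57 holds centrosomes and binds microtubules. Its 78-base exon was at 54.1, 47.7, 44.5, 61.3 and 49.2% in Ag and at 27.0, 33.3, 34.2, 27.9 and 38.6% in Ag+Costim (log2 odds ratio −1.16 ± 0.34 SE, adjusted p = 0.423). In both genes the groups stayed apart, which is how these exons were chosen, so leaving out any 1 library cannot turn the direction.

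Pecam1 is an inhibitory adhesion receptor of leukocytes and endothelium, and exons of its cytoplasmic tail are known to be spliced in and out. The 57-base exon, exon 14 of 16 in its transcript, was included at 79.3, 70.4, 78.6, 74.8 and 76.7% in Ag and at 68.0, 67.1, 70.2, 66.6 and 68.8% in Ag+Costim. The groups almost touched, with 70.4% as the lowest Ag and 70.2% as the highest Ag+Costim library (log2 odds ratio −0.57 ± 0.29 SE, adjusted p = 0.878). PSI was 0.490 under antigen alone and 0.337 with costimulation.

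Ppp2r5c, a regulatory subunit of phosphatase PP2A, had 10.2, 9.89, 28.9, 13.5 and 11.2% in Ag and 6.70, 7.05, 8.20, 7.13 and 9.58% in Ag+Costim for its 117-base exon. Ag replicate 3 alone was at 28.9% (log2 odds ratio −0.91 ± 0.41 SE, adjusted p = 0.828). PSI was 0.421 under antigen alone and 0.265 with costimulation. Aak1, a kinase of clathrin-coated pits, had the largest PSI difference of the 10, with 0.488 under antigen alone and 0.321 with costimulation. Its inclusion in transcript counts was 98.8 ± 0.396% in Ag and 97.6 ± 0.732% in the other group (SD, n = 5).

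In Mthfsd the 114-base exon was at 47.2 ± 14.7% in Ag and 28.6 ± 2.15%, with Ag replicates 2 and 5 at 32.1 and 31.5%, just above the highest Ag+Costim library at 30.8%. Its locus overlaps Gm20388, and reads of the 2 genes may not be told apart. Rpusd1, a pseudouridine synthase domain protein, was at 76.9 ± 3.84% and 64.1 ± 7.82% for a partly coding exon of 189 bases. The 87-base exon of Deaf1, a transcription factor, was at 98.3 ± 0.428% and 97.3 ± 0.519%, and the 189-base exon of Tnks2, a tankyrase, at 99.9 ± 0.0299% and 99.7 ± 0.0464% (SD, n = 5 in each). The differences in Deaf1 and Tnks2 were −0.936 and −0.202 percentage points, while PSI was 0.835 against 0.771 and 0.846 against 0.715. None of the 10 passed the adjusted threshold.

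**Figure D4:**
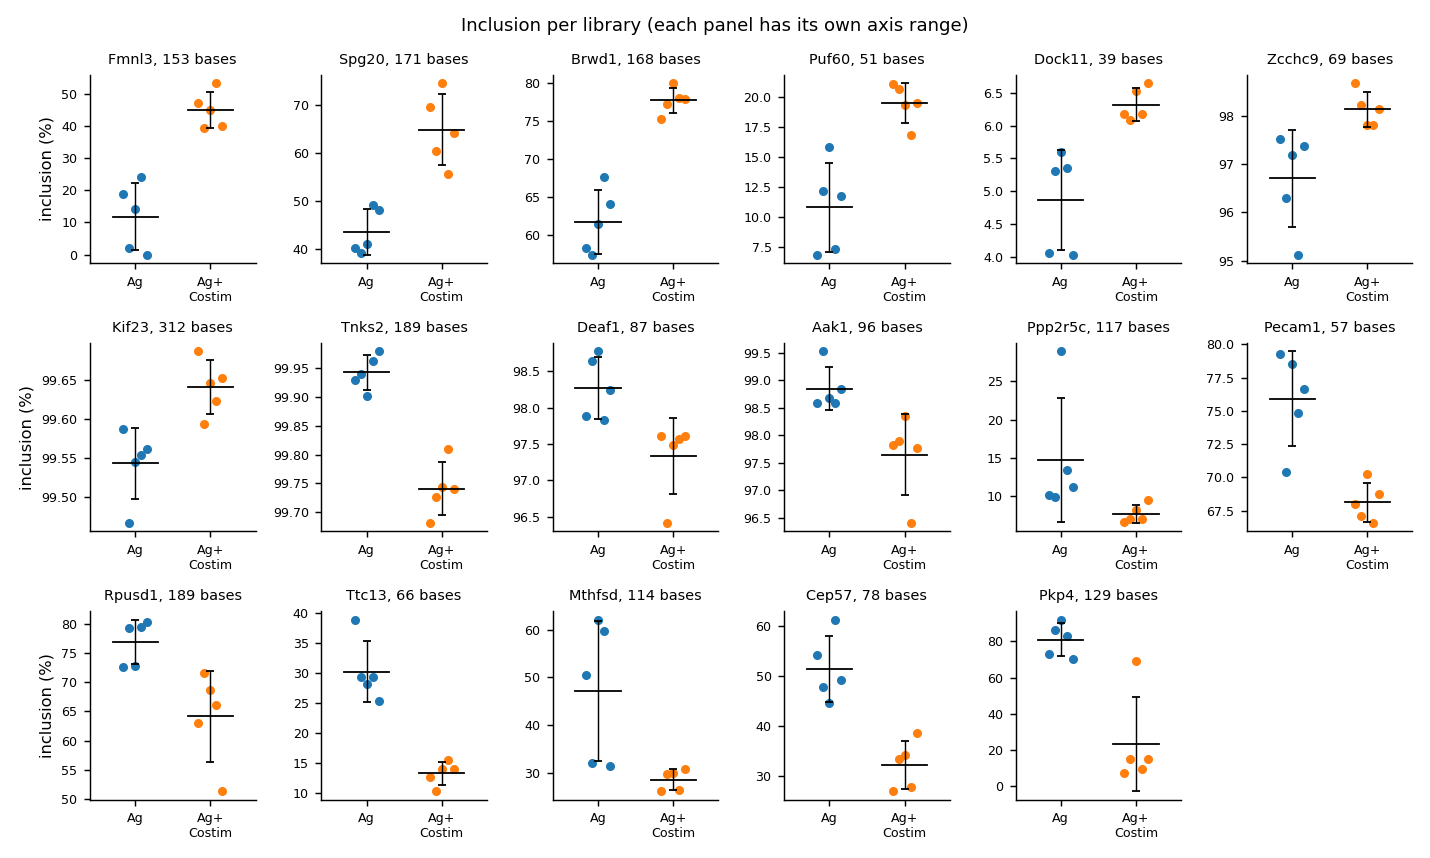
Each panel shows inclusion in percent for 1 exon, with a point per library (blue Ag, orange Ag+Costim, 5 each), the mean as a bar and the standard deviation as whiskers, and an axis range of its own. The first 7 panels are the exons higher in every Ag+Costim library and the next 10 those lower in every one, with mean differences from 33.1 points in Fmnl3 to 0.0970 points in Kif23 among the first and down to −58.0 points in Pkp4 among the others (Ag+Costim minus Ag).

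In 4 exons without overlap the PSI difference had the opposite sign, in Iqce, Macf1, Tcof1 and the 849-base exon of Brwd1. The 84-base exon of Iqce, of primary cilia, was included at 5.85, 13.2, 8.56, 6.72 and 2.84% in Ag and at 33.6, 41.3, 40.7, 49.4 and 27.8% in Ag+Costim, with the lowest adjusted p of the 778 (log2 odds ratio 3.11 ± 0.55 SE, adjusted p = 0.271). Its PSI was 0.402 under antigen alone and 0.388 with costimulation. The 63-base exon of Macf1 was at 95.002 ± 8.48% in Ag and 72.5 ± 10.9% in Ag+Costim, while its PSI was 0.0879 and 0.205. In Tcof1, a nucleolar protein of ribosome production, the 144-base exon was at 71.3, 91.8, 94.1, 68.4 and 98.1% in Ag and 59.5, 58.9, 68.3, 56.8 and 58.9% in Ag+Costim, with PSI 0.858 under antigen alone and 0.868 with costimulation. Iqce and Tcof1 were chosen after their values were seen.

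Ag replicates 1 and 4 stood apart from the other Ag libraries in some exons. The 108-base exon of Ep400 was included at 50.7, 84.2, 83.6, 13.8 and 84.9% in Ag and at 16.5, 12.9, 12.1, 13.2 and 14.4% in Ag+Costim. Replicate 4 was inside the Ag+Costim range, replicate 1 between, and the other 3 near 84% (log2 odds ratio −3.80 ± 1.02 SE, adjusted p = 0.394). Without replicates 1 and 4, left out after the data were seen, its edgeR adjusted p was 0.00248, and without replicate 4 alone 0.0391. Both fits leave out the Ag libraries with low inclusion of this exon, so neither is a test of it. The PSI difference had the opposite sign, with 0.184 under antigen alone and 0.269 with costimulation. The 5331-base exon of Macf1 had 13.8, 74.5, 92.1, 13.1 and 54.3% in Ag and 18.5, 23.1, 22.7, 15.6 and 11.7% in Ag+Costim, again with replicates 1 and 4 inside the range of the other group, and 4 more exons of the gene had the same values because they share transcripts.

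Genes of T cell function were read as a list. Of 116 listed genes, 26 held 32 exons. Of these, 6 differed by over 0.1 in PSI, 3 higher and 3 lower, against 16.6% of all 1037 exons. Of 27 tested none passed the adjusted test, against 0.0404% of all exons tested. An unadjusted p under 0.05 was found for 2, against 5.96% of all exons, and none was free of overlap, against 2.29%. Counts this small say nothing about the list. The 6 were exons of Cbl, a ubiquitin ligase that dampens receptor signalling (0.636 to 0.9002), Nfat5, a transcription factor of osmotic stress (0.308 to 0.604), Map3k7, the kinase TAK1 (0.258 to 0.365), Runx1, a transcription factor of lymphocyte development (0.620 to 0.489), and 2 of Wnk1 (0.479 to 0.212 and 0.922 to 0.809). For the 54-base exon of Nfat5, inclusion was 87.0 ± 14.6% in Ag against 82.3 ± 22.1% in Ag+Costim (SD, n = 5), and the difference between them had the opposite sign to that of PSI.

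Ptprc was the second most abundant host, at 1540.2 CPM. PSI of its 147-base exon was 0.397 under antigen alone and 0.341 with costimulation. Inclusion was 30.9, 19.3, 57.5, 27.4 and 21.031% in Ag and 26.1, 24.1, 17.7, 19.4 and 19.8% in Ag+Costim. The groups overlapped, and the highest value was that of Ag replicate 3 (log2 odds ratio −0.64 ± 0.46 SE, adjusted p = 0.921).

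Ikzf1 encodes Ikaros, a zinc finger transcription factor of lymphocytes. Its exon 4, of 261 bases, had a PSI of 0.679 under antigen alone and 0.690 with costimulation and an inclusion of 95.8, 95.6, 94.3, 95.5 and 96.9% in Ag and 95.9, 96.1, 96.4, 96.1 and 96.3% in Ag+Costim. The groups overlapped and differed by 0.546 points (adjusted p = 0.944 with edgeR). Its 123-base exon had 0.904 under antigen alone and 0.888 with costimulation and has no annotated skipping transcript.

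In the other T cell hosts named, the groups overlapped wherever both sides were annotated. Tcf7, the transcription factor TCF1 of naive and memory cells, had a PSI of 0.569 under antigen alone and 0.519 with costimulation for a 93-base exon with no annotated skipping transcript. For Cd6, a receptor that tunes T cell receptor signals, inclusion was 83.7 ± 2.47% in Ag against 84.9 ± 2.61% in Ag+Costim (SD, n = 5). Cd27, a costimulatory receptor, had 95.4 ± 1.18% and 94.3 ± 1.82%, and Stat4, which carries interleukin-12 signals, had 98.6 ± 0.496% and 99.2 ± 0.173%. Bin1, of membrane curvature, had 33.8 ± 3.08% and 39.8 ± 4.29%, and Ezh2, the H3K27 methyltransferase, had 96.4 ± 1.78% and 92.5 ± 4.70%. The 2 exons of Git2, a GTPase activating protein for ARF, had 69.6 ± 15.8% and 69.9 ± 8.01% (90 bases) and 50.8 ± 7.97% and 55.7 ± 4.99% (105 bases). Cd27 and Tcf7 overlap other genes in the annotation, so their reads are less certain.

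Atf2, Tcf12 and Dlg1, also named in the study text, each held 1 exon, and all 3 overlapped between groups. The 63-base exon of Atf2, a bZIP transcription factor, lies outside the coding sequence and was included at 7.10, 1.96, 7.82, 14.7 and 3.35% in Ag and 6.91, 10.03, 10.1, 7.87 and 13.3% in Ag+Costim, with PSI 0.130 under antigen alone and 0.196 with costimulation. Tcf12, an E protein, had 62.4 ± 20.7% and 70.2 ± 13.1% (SD, n = 5) and PSI 0.225 under antigen alone and 0.176 with costimulation. Dlg1, a scaffold of the immune synapse, had 62.3, 66.3, 100, 75.003 and 100% in Ag and 83.6, 58.9, 47.2, 44.1 and 66.2% in Ag+Costim for its 99-base exon (adjusted p = 0.923 with edgeR).

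Splicing factors themselves held 22 exons in 16 of 90 listed genes. Of these, 3 differed by over 0.05 and 1 by over 0.1 in PSI, against 39.6% and 16.6% of all 1037 exons. The median absolute difference was 0.0156 against 0.0374 over all 1037 exons. None of 19 tested had an unadjusted p under 0.05, against 5.96% of all exons tested. The 1 was the 60-base exon of Tial1, an RNA binding protein of stress granules, outside the coding sequence, with 0.221 under antigen alone and 0.121 with costimulation and an inclusion of 2.23 ± 2.23% and 3.11 ± 3.82%. Rbm10, which represses exons, had an inclusion of 35.9, 60.1, 64.0, 28.7 and 27.3% in Ag and 51.1, 62.2, 59.9, 71.9 and 65.0% in Ag+Costim for its 231-base exon. The 57-base exon of Hnrnpd, of AU-rich element decay, had 50.5 ± 17.1% and 63.6 ± 17.8%.

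Chromatin genes held 34 exons in 21 of 81 listed genes. Of these, 8 differed by over 0.1, all higher in Ag+Costim, of which 7 were the linked exons of Ep400 and 1 a 105-base exon of Kmt2c, an H3K4 methyltransferase (0.492 under antigen alone and 0.600 with costimulation). Of 23 tested, 2 had no overlap, against 2.29% of all exons. These were Atrx, a remodeller of heterochromatin, with 86.5 ± 2.08% and 82.2 ± 1.74%, and Kdm2a, an H3K36 demethylase, with 0.592 ± 0.154% and 0.269 ± 0.0971% (SD, n = 5).

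Cytoskeleton and membrane traffic genes held 50 exons in 30 of 80 listed genes. Of these, 2 differed by over 0.1 in PSI, in Tpm1 and Macf1, against 16.6% of all 1037 exons. Without overlap was 1 of 41 tested, the 63-base exon of Macf1, against 2.29% of all exons. Golga4, a golgin, had a PSI of 0.702 under antigen alone and 0.613 with costimulation for an 84-base exon, but an inclusion of 72.4 ± 8.32% and 73.6 ± 3.31%. Hosts known for productive and unproductive forms (canonical targets of nonsense-mediated decay, 25 listed) held 9 exons in 5 genes, none over 0.1. Exons in Srsf7 and Ptbp1 are among them, the latter with 0.432 under antigen alone and 0.388 with costimulation. No exon of these lists passed the adjusted test, which says nothing about the lists at a background of 0.0404% called.

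Levels of the host genes were tested in the gene counts. Of the 785 host genes none passed an adjusted p of 0.05 (edgeR), and neither did any other of the 24262 genes tested. At an unadjusted p under 0.05 there were 216 (27.5%, 180 higher and 36 lower in Ag+Costim), against a background of 18.6% of all genes tested and 23.1% of 8626 genes at 10 CPM or more after TMM scaling, which multiplies each library total by a further factor. DESeq2 called 107 of the hosts (13.6%), against 14.3% of all 43372 genes to which it gave an adjusted p and 10.8% of those at 10 CPM or more. The split of the hosts by direction moved with the scaling, with 135 higher and 70 lower under DESeq2 size factors and 91 higher and 99 lower under total counts. The median log2 fold change was 0.18 in the hosts and 0.24 in all genes at 10 CPM or more. With DESeq2 size factors they were 0.05 and 0.12. Scaling by total counts moved the median of the hosts to −0.09, so their direction as a set depends on the scaling.

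Of 60 listed regulators of cassette exons, 59 were tested with edgeR, and none passed after adjustment. At an unadjusted p under 0.05, 33 were higher and 2 lower (59.3%, against 18.6% of all genes and 23.1% of those at 10 CPM or more). DESeq2 called 16 of the 59 after adjustment (27.1%, against 14.3% of all genes and 10.8% of those at 10 CPM or more). The counts that follow are from edgeR. With DESeq2 size factors 27 were higher and 2 lower, and with total counts 26 and 2. Their median log2 fold change was 0.52, 0.41 and 0.32 under the 3 scalings, and 0.29 under TMM scaling without Ag replicates 1 and 4. In CPM of library totals, the unit of the host levels, every Ag+Costim library was above every Ag library in 15 of them (25.4%) and below in none. The background was 2.9% of all genes tested and 7.65% of those at 10 CPM or more. After TMM scaling the count was also 15, against 4.48% and 11.3%. Raly, an hnRNP protein, was at 76.4, 116, 99.5, 86.5 and 87.8 CPM in Ag and at 199, 188, 217, 156 and 163 CPM in Ag+Costim, without overlap. Its log2 fold change was 1.19 ± 0.23 SE under TMM scaling (edgeR adjusted p = 0.134) and 0.98 ± 0.14 under total counts. Taf15, an RNA binding protein, was at 5.11 ± 1.73 CPM in Ag against 9.30 ± 0.658 CPM with costimulation, Hnrnpl at 216 ± 29.1 and 342 ± 27.4 CPM, Celf1 at 147 ± 25.5 and 184 ± 8.94 CPM and Tra2b at 214 ± 43.9 and 387 ± 43.4 CPM (SD, n = 5). The groups overlapped in Celf1 and not in the other 3. Tardbp, the RNA binding protein that the study took further, was at 109, 147, 112, 107 and 110 CPM in Ag and at 137, 143, 129, 161 and 150 CPM in Ag+Costim. Ag replicate 2 lay within the Ag+Costim range and the other 4 Ag libraries below it. The log2 fold change of Tardbp was 0.51 ± 0.21 SE under TMM scaling (edgeR adjusted p = 0.261) and 0.29 ± 0.11 under total counts. Without Ag replicates 1 and 4, 21 regulators were higher and none lower at an unadjusted p under 0.05 (35.6%, against 13.7% of all genes and 21.5% of those at 10 CPM or more), and 16 were higher without overlap after TMM scaling (27.1%, against 6.94% and 16.9%).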

How the data were processed

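RNA was amplified with SMART-Seq v4 and sequenced as 2x150 paired reads. Per the labels the authors aligned to mm10 with HISAT2 2.1.0, used SAMtools 1.9 and made estimated counts per gene and transcript with StringTie 2.1.0, so totals are not numbers of reads. Group PSI values are deposited fractions from Whippet, 1 per group. That table's columns of differences and probabilities were not used, and the Naive samples were not analysed here. The labels number 5 replicates per group and the study text describes 5 mice per group, so p-values measure the spread between these libraries.

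Exons were tied to GENCODE M21 genes by symbol and position, or by exact exon position where the symbol differed (37 exons). Members, lists and tests were chosen with earlier results of these data known. Counts were rounded. For each core exon with a mean of at least 50 counts and at least 10 on each side, edgeR 4.0.16 (R 4.3.3) fitted included and skipping counts with library terms and an interaction with group, with Benjamini-Hochberg adjustment over all 7428 exons. Genes were fitted with edgeR, TMM factors and filterByExpr, and levels are CPM of library totals unless TMM scaling is named. limma 3.58.1 and DESeq2 1.42.0 were alternatives, and scripts were tested on simulated data. Named exons were those past the threshold (none), else up to 10 per direction without overlap and with the PSI sign, then up to 12 in T cell hosts by level, exons of genes the study names, and up to 4 per other host list by PSI difference. Motifs were searched in exons only, since intron sequence was not used here. Some items that the naming rule reaches are not reported here.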

Additional observations from a re-analysis of the deposited data

Results flagged for a closer look

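In 9 of 72 groups of 5 libraries, over 36 named exons, 1 library stood apart from the other 4 (gap over 0.71 of the range, Dixon's test). The rate of about 1 in 20 for this limit holds for independent, normally distributed values. These are percentages of chosen exons from the same libraries, so the count cannot be set against that rate. Ppp2r5c (117 bases) was at 28.9% in Ag replicate 3, against 9.89 to 13.5% in the others. Pkp4 (129 bases) was at 69.4% in Ag+Costim replicate 3, against 7.26 to 14.8%. The 63-base exon of Macf1 was at 79.997% in Ag replicate 2, against 97.4 to 100%, and at 53.0% in Ag+Costim replicate 2, against 76.2 to 78.7%. Ezh2 (126 bases) was at 84.3% in Ag+Costim replicate 1, against 93.9 to 96.1%. Aak1 (96 bases) was at 99.5% in Ag replicate 2, against 98.6 to 98.8%. Tial1 (60 bases) was at 9.87% in Ag+Costim replicate 5, against 0.586 to 2.08%. Deaf1 (87 bases) was at 96.4% in Ag+Costim replicate 2, against 97.5 to 97.6%. Ttc13 (66 bases) was at 39.0% in Ag replicate 1, against 25.4 to 29.3%. What set these libraries apart was not tested.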

How the results depend on the processing

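The count of 0 frame-preserving cassette exons called, of 3 among all exons, held with limma on log2 odds (0, and 7 among all), with counts per transcript length (0 and 8) and with looser or stricter count limits (0 and 3). DESeq2 called 27 and 574 exons, and 6214 genes with 107 hosts, where edgeR called 0 genes under every scaling. The cause of the gap between tools was not tested. Leaving out 1 library at a time gave 0 to 1 exon of the set (the 108-base exon of Ep400, without Ag replicate 4) and 0 to 42 among all exons (42 without Ag replicate 5), and 26 to 46 exons without overlap. Without Ag replicates 1 and 4 it was 2, 34 and 67. That alternative, the one without Ag replicate 3 in the level and the repeats and second scale of the overlap counts were chosen after seeing the data.

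The replicate number as a block gave 0 calls in the set and 1 among all exons. Deviations of same-numbered libraries correlated at −0.0492 to 0.0329 in inclusion and at −0.289 to 0.169 in gene levels. Between libraries of other numbers the values were −0.0359 to 0.0546 and −0.350 to 0.290. Whether same-numbered libraries share more than a number was not tested.

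The count of exons over 0.1 in PSI, 172, was 37 over 0.2, 110 with a mean PSI of 0.2 to 0.8, and 64 in hosts at 30 CPM or more. The set of 1037 exons had 554, 1981, 640 and 2065 members with a mean PSI of 0.2 to 0.8, of 0.05 to 0.95, at 30 CPM and at 1 CPM. Exons named for having no overlap cannot change sign when libraries are left out, so much of the next count was fixed by the naming rule. Of 432 alternative values of the 36 named exons 423 kept their sign. The others were −4.14 to −0.138 points in the 90-base exon of Git2 (−3.82 without Ag replicate 1, −4.14 without Ag replicate 3, −0.138, −1.30 and −1.52 without Ag+Costim replicates 1, 2 and 4, −1.49 without Ag replicates 1 and 4), −0.803 (without Ag+Costim replicate 5) and −0.182 (without Ag replicates 1 and 4) in Tial1, and −1.68 in Golga4 (without Ag replicate 5). That count covers signs and not sizes. With counts per transcript length, the difference went from −0.202 to −1.31 points in Tnks2 and from 0.546 to 2.27 in exon 4 of Ikzf1. In Stat4 it went from 0.572 to 1.58 and in Zcchc9 from 1.43 to 2.59. Larger differences moved less, such as Fmnl3 (33.1 to 31.3) and Pkp4 (−58.0 to −57.7). PSI has 1 value per group and inclusion rests on annotated transcripts, so depth per exon is unknown beyond the estimated counts.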

Other observations

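Some exons that the naming rule did not reach had an unadjusted p under 0.05 in edgeR and were chosen after their values were seen. The 159-base second exon of Etv6, an ETS transcription repressor, lies outside the coding sequence and was included at 99.8, 99.5, 99.1, 75.1 and 61.1% in Ag replicates 1 to 5 and at 61.4, 58.0, 26.4, 46.0 and 52.9% in Ag+Costim, while its PSI was 0.582 under antigen alone and 0.553 with costimulation. Helz, a helicase, had 72.6 ± 10.5% in Ag against 49.6 ± 13.2% in Ag+Costim (SD, n = 5) for a 57-base exon outside the coding sequence. Rffl, a ubiquitin ligase of endosomes, had 8.65, 0, 2.26, 39.7 and 0% in Ag and 44.4, 28.6, 38.0, 41.6 and 39.7% in Ag+Costim for a partly coding exon of 144 bases, and PSI was 0.0659 under antigen alone and 0.160 with costimulation. The 84-base exon of Wnk1 was at 76.7, 100, 100, 99.97 and 100% in Ag and 100, 98.9, 71.7, 58.7 and 50.2% in Ag+Costim, with PSI 0.922 under antigen alone and 0.809 with costimulation.

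Izumo1r encodes folate receptor 4, a surface protein of regulatory and anergic T cells. Its 87-base exon was partly coding and had a PSI of 0.0469 under antigen alone and 0.296 with costimulation and an inclusion of 20.4 ± 14.8% in Ag and 39.5 ± 16.3% in Ag+Costim (log2 odds ratio 1.54 ± 0.79 SE, adjusted p = 0.878). The smallest library held 135 estimated counts for it, so single values are uncertain.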
